A study of Mus musculus with 13 samples.

Results

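Myc, its partners Max and Mxd1, the D-type cyclins Ccnd1, Ccnd2 and Ccnd3, the E-type cyclins Ccne1 and Ccne2, and the cyclin-dependent kinase inhibitor Cdkn1b were followed through endotoxin-driven acute liver injury in mice. These 9 genes were chosen by name, for their place at the entry into the cell cycle, from the 54532 genes of the count table, and all 9 passed the filter on low counts that left 14280 genes for testing. Whole liver RNA came from 13 libraries of wild-type C57 BL6 mice aged 8 weeks, in 4 groups. The saline group (n = 3) received vehicle. The GalN/LPS group (n = 3) received D-galactosamine (500 mg/kg) together with a low dose of lipopolysaccharide (5 µg/kg). The pretreated group (n = 4) received 300 µg/kg of dmPGE2, a long-lived analogue of prostaglandin E2, 1 h before the same injury, and the dmPGE2 group (n = 3) received that dose with no injury. All groups carry a 6 h label, which the protocol counts from the GalN/LPS injection, and it does not say from which injection the hours run in the saline and dmPGE2 groups. The labels do not state that each library was its own animal, so the p-values measure the spread between these samples, which may be in part technical.

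MYC is a transcription factor that drives growth genes when it is paired with MAX on the DNA sequence known as the E-box. MXD1 competes for MAX, binds the same sequence and represses. Cyclins D1, D2 and D3 activate the kinases CDK4 and CDK6 early in G1, cyclins E1 and E2 activate CDK2 at the step into S phase, and p27, the product of Cdkn1b, holds cyclin E with CDK2 inactive. Hepatocytes of the adult liver are mostly quiescent, and Myc and Ccnd1 are well known as genes that are induced when they are driven back into the cycle. D-galactosamine traps uridine in hepatocytes, which limits their RNA synthesis, and lipopolysaccharide then kills them through tumour necrosis factor.

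The libraries held between 14829838 and 20777809 counts. TMM, the scaling that sets the libraries to a common level from the bulk of their genes, gave factors between 0.683 and 0.830 in the pretreated libraries and between 0.904 and 1.28 in the others. The choice of scaling therefore matters for the pretreated group: scaled by library totals alone, the median of all genes in pretreated against GalN/LPS livers was at -0.61 on the log2 scale, against -0.10 with TMM. The hepatocyte markers were abundant in every library, with a summed level of at least 68497 CPM, counts scaled to the size of the library. Neutrophil markers summed to 4.43 to 16.8 CPM in the saline group and 5.10 to 8.64 in the dmPGE2 group, where Ly6g was at 0 in all 3 libraries, against 656 to 868 after GalN/LPS and 253 to 407 with pretreatment. Sinusoidal endothelial markers summed to 65.2 to 74.3, 71.8 to 91.6, 425 to 542 and 124 to 257 CPM in the same order. Other markers higher after GalN/LPS were 7 of 8 for macrophages, 4 of 4 for monocytes, 6 of 7 for stellate cells, 5 of 6 for T and NK cells, 3 of 5 for B cells, 5 of 5 for cholangiocytes and 4 of 4 for erythroid cells, against 0 of 6 for hepatocytes. In pretreated against GalN/LPS livers the lower markers were 8 of 8 for macrophages, 3 of 4 for monocytes, 6 of 7 for stellate cells, 4 of 6 for T and NK cells, 5 of 5 for B cells, 3 of 5 for cholangiocytes and 3 of 4 for erythroid cells. Hepatocyte markers were then higher, 6 of 6 with TMM and 2 of 6 with library totals, and summed to 140602 to 220390 CPM with pretreatment against 91909 to 131766 without it. In whole liver, a change in the number of cells of a type and a change in RNA per cell cannot be told apart.

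The clearest changes lay in Mxd1 and Ccnd2, which rose after GalN/LPS, and in Ccne1, which fell. Myc itself stood between 26.6 and 39.3 CPM in the injured livers and overlapped the saline libraries. In the pretreated livers Myc, Mxd1, Max, Ccnd2 and Cdkn1b were all lower than after GalN/LPS alone. The cyclins D1, D3, E1 and E2 showed no change that passed the test with TMM. dmPGE2 without injury moved none of the 9 past the test.

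**Figure D1:**
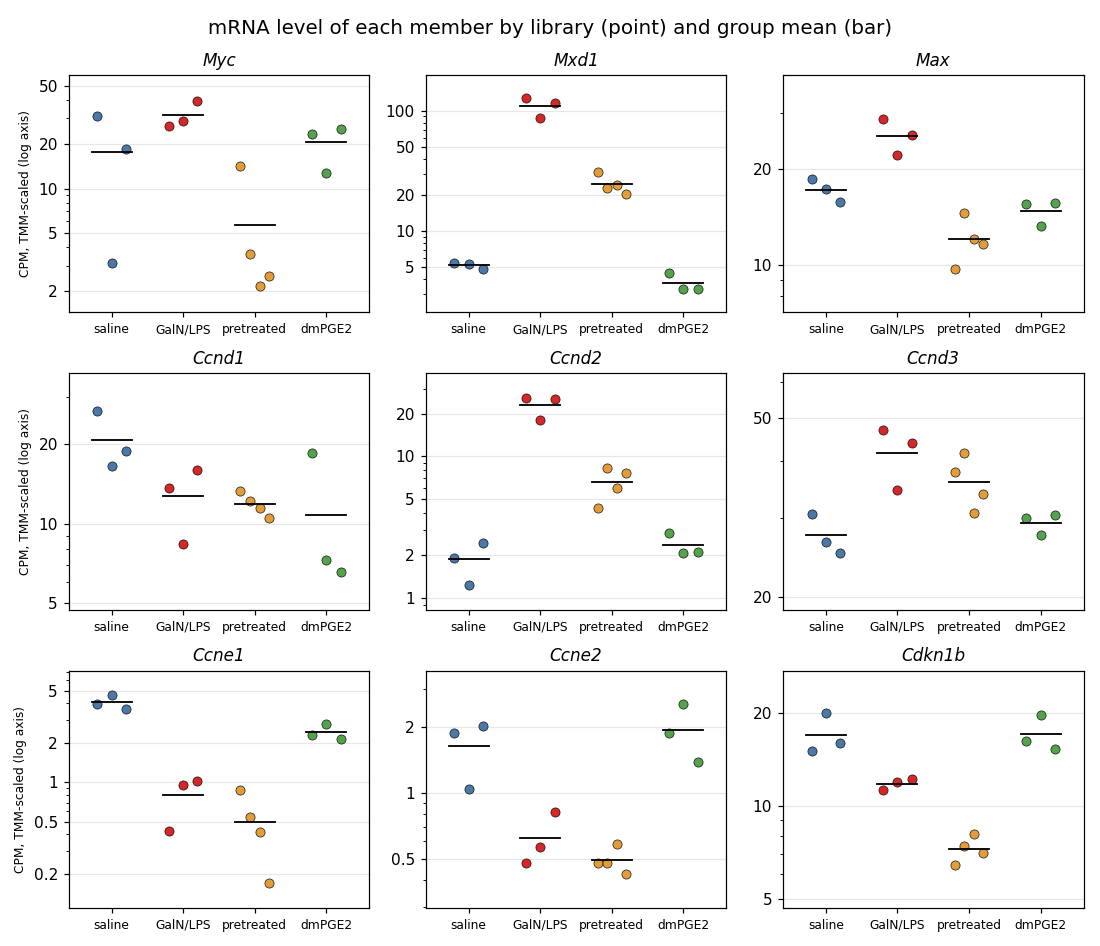
Each panel shows 1 gene. Points are single libraries and bars are group means, in TMM-scaled CPM on a log axis, for saline (n = 3), GalN/LPS (n = 3), pretreated (n = 4) and dmPGE2 (n = 3). Mxd1 and Ccnd2 separate the injured groups from the uninjured ones upward, Ccne1 separates them downward, and the Myc libraries of the saline and pretreated groups are widely spread.

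Promoters are shown for the member that rose most and for the inhibitor that fell in both injury steps, with the Max start beside them because its E-box is the sequence that the MYC and MXD1 dimers bind. They are from RefSeq on GRCm38.p6, which had entries for 5 of the 9 genes (Mxd1, Max, Ccnd3, Ccne1 and Cdkn1b). Motifs were searched on both strands in windows from 250 bases before to 50 after each start. Capitals in the Mxd1 line (chr6:86669162-86669409, minus strand, upstream of the gene) mark CCAAT boxes and 1 match to a general form of the NF-kB site (GGG, any 3 bases, then TTCC), which touches the third CCAAT box without overlap.
Mxd1: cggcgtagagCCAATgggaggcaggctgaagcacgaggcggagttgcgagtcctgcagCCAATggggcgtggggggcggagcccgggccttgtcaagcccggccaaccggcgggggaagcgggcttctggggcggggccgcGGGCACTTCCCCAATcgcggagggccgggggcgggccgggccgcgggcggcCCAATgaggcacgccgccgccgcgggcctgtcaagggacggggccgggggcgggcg
Capitals in the Cdkn1b line (chr6:134920151-134920400, plus strand, upstream of the gene) mark CCAAT boxes.
Cdkn1b: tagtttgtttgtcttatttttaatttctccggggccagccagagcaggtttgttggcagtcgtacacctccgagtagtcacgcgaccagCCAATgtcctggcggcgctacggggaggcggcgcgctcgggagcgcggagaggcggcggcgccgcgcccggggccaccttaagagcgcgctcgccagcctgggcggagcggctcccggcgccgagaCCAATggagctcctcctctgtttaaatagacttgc
Capitals in the Max line (chr12:76962237-76962260, minus strand) mark the E-box CACGTG, which spans the RefSeq start, from base -3 to base 3. This stretch lies upstream of the gene as deposited, which runs from 76937269 to 76962201.
Max: gagcccggtCACGTGttagggggc
CCAAT occurred in 37.4% of the 32851 windows of this length, CACGTG in 7.15% and the NF-kB form in 5.56%. Mxd1 held 4 CCAAT boxes, while Cdkn1b held 2 in the stretch shown and 1 on the other strand after the start. The E2F motif TTTCCCGC, present in 1.07% of windows, was in none of the windows of these 5 genes. TGACGT, a cyclic AMP response element core found in 7.51% of windows, was present once, before the second start of Ccnd3. These matches describe the letters only, and no binding was measured.

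Across the 9 genes, 4 were higher and 3 lower in GalN/LPS than in saline livers by edgeR's quasi-likelihood test at a Benjamini-Hochberg adjusted p under 0.05. Among all 14280 tested genes 27.4% were higher and 25.6% lower in that comparison, so 7 of the 9 stand beside 52.9% of genes called in either direction. The median change of the 9 was 0.56 on the log2 scale, against 0.02 over all tested genes. With library totals in place of TMM, the calls for Max and Ccnd3 were lost and 2 of the 9 were higher and 3 lower, beside 21.5% and 30.0% of all genes. In TMM-scaled CPM, 4 of the 9 were higher without overlap between the groups (Mxd1, Max, Ccnd2, Ccnd3) and 4 lower (Ccnd1, Ccne1, Ccne2, Cdkn1b). These stand beside 30.3% and 29.5% of all genes. With library totals Max and Ccnd3 overlapped, with GalN/LPS 2 at 20.0 and 31.3 CPM against 22.0 and 36.2 CPM in saline 1.

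In pretreated against GalN/LPS livers, 5 of the 9 were lower and the other fitted changes were also below 0 without passing, where 30.1% of all genes were lower, 24.4% higher and 54.5% called in either direction. The median change was -0.71, against -0.10 over all genes. With library totals 7 of the 9 were lower, but so were 47.6% of all genes, with 4.31% higher. In TMM-scaled CPM the same 5 that passed with TMM (Myc, Mxd1, Max, Ccnd2 and Cdkn1b) lay below the GalN/LPS libraries without overlap. So did 27.7% of all genes, while 22.7% lay above. This comparison shares its GalN/LPS libraries with the one before, so values of both are given side by side without an overlap.

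For dmPGE2 against saline, 0 of the 9 genes passed the test, and 0% of all tested genes did. At an unadjusted p under 0.05, edgeR had 1990 genes and 3 of the 9. DESeq2, at an adjusted p under 0.05, called 277 genes and 0 of the 9. In TMM-scaled CPM, Mxd1, Max and Ccne1 lay below the saline libraries without overlap, as did 12.0% of all genes, while 14.3% lay above. With library totals Mxd1 and Max overlapped saline and Ccne1 did not. In pretreated against saline livers all 9 passed, 3 higher and 6 lower, where 34.8% of all genes were higher, 30.2% lower and 65.0% called in either direction. With library totals 2 were higher and 6 lower, beside 11.8% and 47.6% of all genes. In TMM-scaled CPM, 3 were above and 5 below the saline libraries without overlap, beside 32.6% and 29.2% of all genes. With library totals Ccnd3 overlapped, at 21.8 to 34.7 CPM in pretreated and 29.2 to 36.2 CPM in saline livers. The saline libraries are shared by these comparisons.

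**Figure D2:**
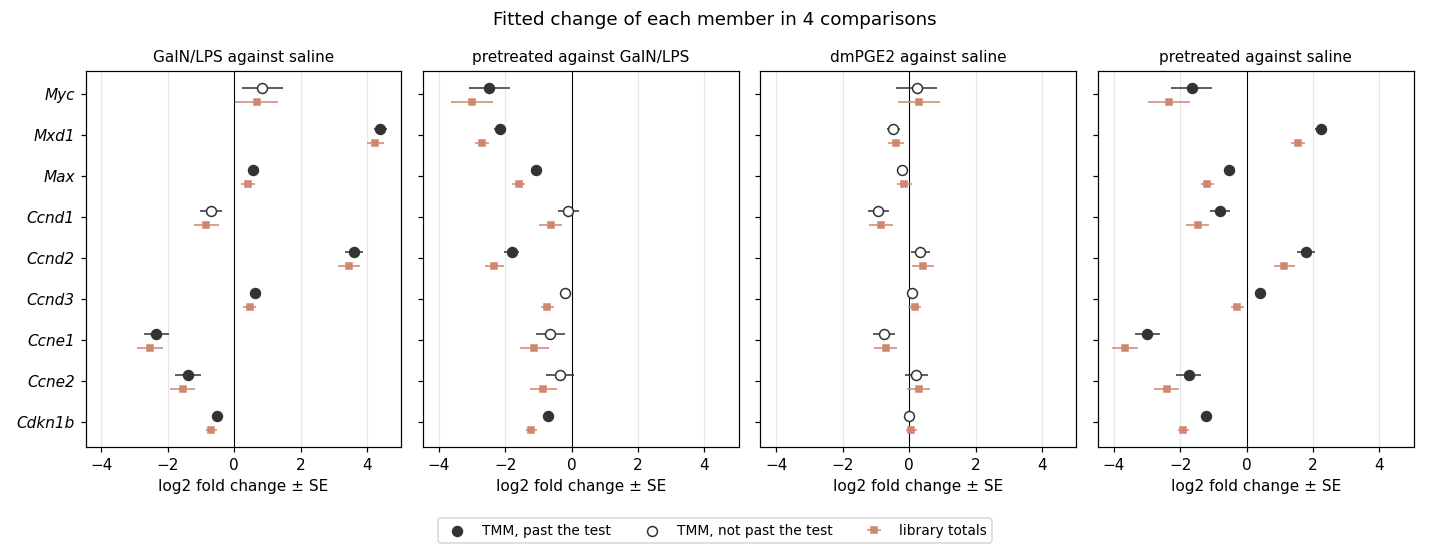
Fitted log2 change of each gene (x axis) with its standard error in 4 comparisons. Circles are the TMM fit, filled where edgeR's quasi-likelihood test passed at an adjusted p under 0.05 and open where it did not, and squares are the fit with library totals. Mxd1 at 4.40 and Ccnd2 at 3.61 lie furthest to the right in GalN/LPS against saline, and Myc at -2.48 lies furthest to the left in pretreated against GalN/LPS.

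Mxd1, the MAX-binding repressor that opposes MYC, is on chromosome 6 (86647042 to 86669161, minus strand, GRCm38, 6 exons in its principal transcript). It read 5.46, 5.33 and 4.90 CPM in the saline libraries and 127, 87.4 and 117 CPM in the GalN/LPS libraries. Pretreated livers held 30.8, 22.8, 24.1 and 20.4 CPM, and dmPGE2 livers 4.54, 3.31 and 3.33 CPM. The injured groups lay far above both uninjured groups, and every pretreated library lay between saline and GalN/LPS. Mxd1 was 21.1-fold higher after GalN/LPS than in saline (log2 change 4.40 ± 0.20 SE, adjusted p = 1.33e-10). With pretreatment it was 4.50-fold lower than after GalN/LPS alone (-2.17 ± 0.16, adjusted p = 6.54e-07) and still 4.69-fold above saline (2.23 ± 0.18, adjusted p = 6.43e-08). With TMM all 3 dmPGE2 libraries were below all saline libraries, with a change of -0.48 ± 0.20 that missed edgeR's test (adjusted p = 0.288). With library totals these groups overlapped, with dmPGE2 1 at 5.82 CPM and saline 3 at 5.70 CPM. Markers of neutrophils and of endothelium, 7 of 7 tested in each list, were higher after GalN/LPS and lower with pretreatment, as most markers of the other non-hepatocyte lists were, and their part in the changes of Mxd1 was not tested.

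Myc, on chromosome 15 (61985391 to 61990374, plus strand, 3 exons), had the widest spread of the 9 genes within the saline group and within the pretreated group. The saline libraries read 31.2, 3.14 and 18.6 CPM, from 681, 63 and 388 counts. GalN/LPS libraries read 26.6, 29.0 and 39.3 CPM, and dmPGE2 libraries 23.4, 12.8 and 25.6 CPM. Pretreated libraries read 14.3, 3.62, 2.17 and 2.54 CPM. The second saline library was thus at the level of the pretreated livers, the first was within the GalN/LPS range and the third lay between. GalN/LPS and saline did not differ past the test (0.84 ± 0.62, adjusted p = 0.271). With no filter on low counts that difference passed edgeR's quasi-likelihood test (0.70, adjusted p = 6.42e-04), and it passed in no other alternative run. Pretreated livers were all below the GalN/LPS livers, by 5.58-fold (-2.48 ± 0.62, adjusted p = 0.00358). Without pretreated 1 the change was -3.49, the lowest of the values with 1 library left out, and the highest was -2.22, without pretreated 3.

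Against saline, Myc in the pretreated livers was 3.12-fold lower (-1.64 ± 0.62, adjusted p = 0.0283), but the groups overlapped. That call ended without saline 1 (adjusted p = 0.222), saline 3 (0.0555), pretreated 2 (0.0695), pretreated 3 (0.0749) or pretreated 4 (0.0776), each by edgeR's quasi-likelihood test. It was also lost in the limma fits on FPKM (adjusted p = 0.0604, 0.0653 and 0.137). The order of mean levels was GalN/LPS, dmPGE2, saline and pretreated. Saline overlapped each of the other groups, while GalN/LPS overlapped neither dmPGE2 nor pretreated livers with TMM. With library totals GalN/LPS and dmPGE2 livers did overlap, with dmPGE2 3 at 32.1 CPM and GalN/LPS 2 at 26.2 CPM. The difference between these groups was not tested.

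Max, the shared partner of MYC and MXD1 on chromosome 12 (76937269 to 76962201, minus strand, 5 exons), moved over a much narrower range. Its levels were 18.6, 17.3 and 15.8 CPM in saline livers and 15.6, 13.2 and 15.7 CPM after dmPGE2 alone. After GalN/LPS they were 28.7, 22.1 and 25.5 CPM, and with pretreatment 9.76, 14.6, 12.1 and 11.7 CPM. With TMM, all GalN/LPS libraries were above, and all pretreated libraries below, the 3 saline libraries. With library totals GalN/LPS 2, at 20.0 CPM, was within the saline range of 18.3 to 22.0 CPM. Max was 1.48-fold higher after GalN/LPS (0.56 ± 0.16, adjusted p = 0.00619). By edgeR's test that call was lost with library totals (0.41, adjusted p = 0.119), with no filter on low counts (0.43, adjusted p = 0.0641) and without GalN/LPS 3 (0.45, adjusted p = 0.0550). With pretreatment Max was 2.11-fold below its GalN/LPS level (-1.08 ± 0.15, adjusted p = 5.59e-05) and 1.43-fold lower than in saline (-0.51 ± 0.15, adjusted p = 0.00655). Both decreases passed with library totals too.

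Ratios within a library do not depend on how libraries are scaled, and levels per transcript length (FPKM) allow genes to be set against each other. Mxd1 FPKM over Max FPKM was 0.149 to 0.158 in the saline group and 0.108 to 0.148 in the dmPGE2 group, against 2.01 to 2.33 after GalN/LPS and 0.794 to 1.60 with pretreatment. The 4 ranges did not overlap. For Mxd1 over Myc the ratios were 0.0671 to 0.653 in the saline group and 0.0501 to 0.0991 in the dmPGE2 group, against 1.14 to 1.83 after GalN/LPS and 0.828 to 4.27 with pretreatment. Both injured groups were above both uninjured groups, and the injured groups overlapped each other. Per length, Myc had the highest mean of the 9 genes in saline (6.60 ± 5.27 FPKM, SD, n = 3) and Mxd1 the seventh, at 0.751 ± 0.0468. In GalN/LPS livers Mxd1 had the highest, at 15.8 ± 3.46 FPKM, with Myc next at 11.7 ± 2.59.

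**Figure D3:**
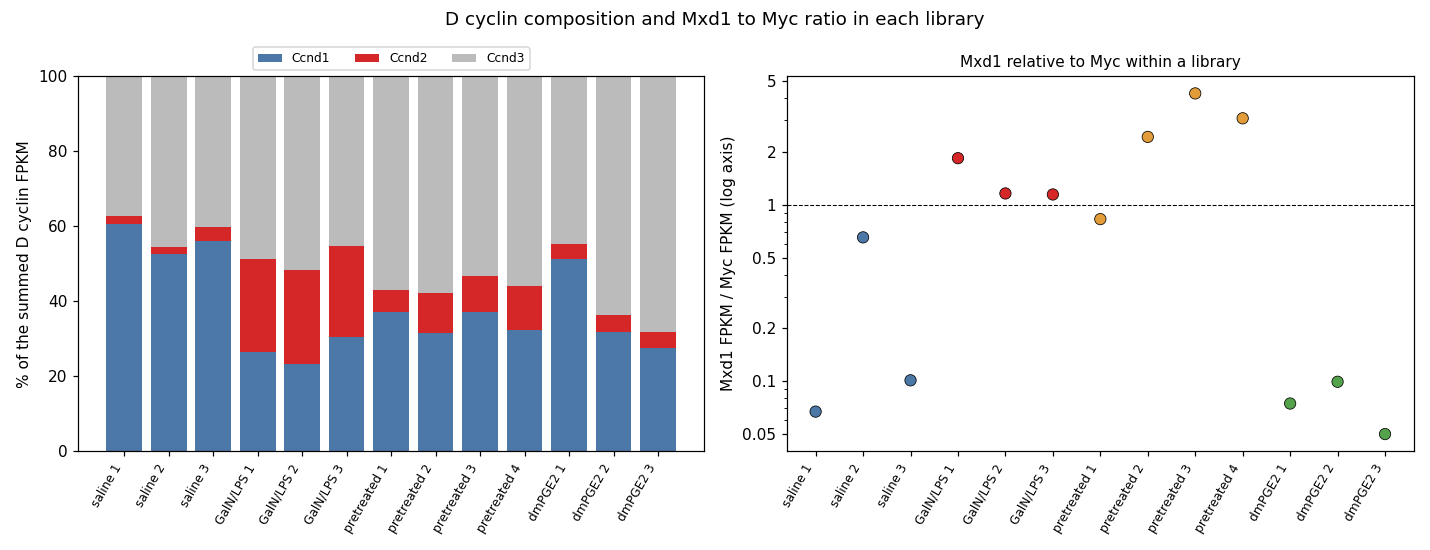
Left, stacked bars give the share of Ccnd1, Ccnd2 and Ccnd3 in the summed D cyclin FPKM of each library, in percent. Right, points give Mxd1 FPKM over Myc FPKM in each library on a log axis, coloured by group, with a dashed line at 1. The Ccnd2 share stands at 24.2% to 25.1% in GalN/LPS livers against 1.99% to 3.66% in saline, and the Mxd1 to Myc ratio is at most 0.653 in uninjured livers and at least 0.828 in injured ones.

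Ccnd2, cyclin D2 (chromosome 6, 127125162 to 127152193, minus strand, 5 exons), rose most of the D cyclins. It read 1.93, 1.25 and 2.45 CPM in the saline libraries and 25.6, 18.0 and 25.2 CPM in GalN/LPS libraries. Pretreated libraries read 4.29, 8.27, 6.00 and 7.61 CPM, and dmPGE2 libraries 2.89, 2.09 and 2.11 CPM. As with Mxd1, all pretreated libraries lay between saline and GalN/LPS, while saline and dmPGE2 overlapped. The rise was 12.2-fold (3.61 ± 0.28, adjusted p = 3.19e-08). Pretreated livers were 3.50-fold below GalN/LPS livers (-1.81 ± 0.23, adjusted p = 3.24e-05) and 3.48-fold above saline (1.80 ± 0.27, adjusted p = 2.81e-05). The same non-hepatocyte markers moved with Ccnd2 as with Mxd1, and their part in its changes was not tested either.

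Ccnd1, cyclin D1 (chromosome 7, 144929931 to 144939925, minus strand, 5 exons), had its highest mean level in saline livers. Saline livers held 26.6, 16.4 and 18.8 CPM and dmPGE2 livers 18.4, 7.31 and 6.58 CPM. The GalN/LPS libraries read 13.7, 8.38 and 15.9 CPM and the pretreated libraries 13.3, 12.2, 11.5 and 10.5 CPM. All injured libraries of both groups were below all saline libraries. The change after GalN/LPS missed the test (-0.70 ± 0.32, adjusted p = 0.0802), but passed with only the compared groups in the fit (adjusted p = 0.0344), with no filter on low counts (9.07e-05) and without GalN/LPS 3 (0.0347), each by edgeR's quasi-likelihood test. Pretreated livers were 1.74-fold below saline (-0.80 ± 0.30, adjusted p = 0.0298), a call lost without saline 1 (adjusted p = 0.156), pretreated 3 (0.0556) or pretreated 4 (0.0680). That call was also lost in the limma fit on FPKM with no filter (adjusted p = 0.0823). Pretreated and GalN/LPS livers overlapped (-0.10 ± 0.31, adjusted p = 0.801). In dmPGE2 livers the change from saline was -0.92 ± 0.32 (unadjusted p = 0.0114, adjusted p = 0.215 by edgeR), with the first library at the saline level and the other 2 below it. Ccnd1 shares 1771 bases of its span with Oraov1 on the opposite strand, and the sources used here do not say whether counting used strand.

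Ccnd3, cyclin D3 (chromosome 17, 47505051 to 47599691, plus strand, 7 exons), varied least of the 9 genes over the 13 libraries. Its levels were 30.6, 26.5 and 25.1 CPM in saline livers and 29.9, 27.4 and 30.4 CPM after dmPGE2 alone. After GalN/LPS they were 46.9, 34.6 and 43.9 CPM, and with pretreatment 37.9, 41.8, 30.7 and 33.8 CPM. With TMM the injured libraries were above the saline ones in each case, with the lowest pretreated library just above the highest saline one. With library totals both injured groups overlapped saline. After GalN/LPS Ccnd3 was 1.53-fold higher (0.61 ± 0.15, adjusted p = 0.00229), and the call was lost with library totals (0.46, adjusted p = 0.0697). Pretreated and GalN/LPS livers overlapped (-0.21 ± 0.14, adjusted p = 0.194 by edgeR). That difference passed edgeR's test with library totals (-0.73, adjusted p = 0.00420) and with a 10 CPM filter (-0.41, adjusted p = 0.0209). In pretreated against saline livers it was 0.40 ± 0.14 with TMM (adjusted p = 0.0193) and turned to -0.27 with library totals (adjusted p = 0.232). That call was also lost with DESeq2 (0.0537), with no filter (0.297) or a 10 CPM filter (0.0695), with only the compared groups (0.151), in all 3 limma fits on FPKM (0.0819 to 0.124) and without saline 2 (0.0597), saline 3 (0.0803) or pretreated 2 (0.0606). It overlaps 361 bases of Bysl on the opposite strand.

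Within each library, the makeup of the D cyclins differed between groups. Ccnd1 gave 52.5% to 60.5% of the summed D cyclin FPKM in the saline group, 23.3% to 30.5% after GalN/LPS and 31.4% to 37.1% with pretreatment, with no overlap between these 3 groups. Ccnd2 gave 1.99% to 3.66% in the saline group and 4.02% to 4.53% in the dmPGE2 group, against 24.2% to 25.1% after GalN/LPS and 6.01% to 11.7% with pretreatment. Ccnd3 gave the remainder and was the largest share in every GalN/LPS and pretreated library, at 45.2% to 51.6% and 53.2% to 57.9%. It was also the largest share in dmPGE2 2 and dmPGE2 3, at 63.8% and 68.1%, but not in dmPGE2 1 (44.7%). The 3 dmPGE2 libraries were uneven, with Ccnd1 at 51.3% in one and at 27.5% and 31.7% in the others. Summed D cyclin FPKM overlapped between saline (6.78 to 9.52) and GalN/LPS (7.39 to 11.4), so the makeup separated these groups and the sum did not.

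Ccne1, cyclin E1 (chromosome 7, 38097984 to 38107534, minus strand, 12 exons), fell most of the 9 genes after GalN/LPS. Saline livers held 3.99, 4.63 and 3.65 CPM and dmPGE2 livers 2.29, 2.79 and 2.15 CPM. The GalN/LPS libraries read 0.425, 0.946 and 1.02 CPM and the pretreated libraries 0.873, 0.547, 0.417 and 0.169 CPM. The uninjured libraries rest on 48 to 93 counts each and the injured ones on 2 to 20, so the low levels are imprecise. Ccne1 was 5.11-fold lower after GalN/LPS (-2.35 ± 0.37, adjusted p = 6.77e-05) and 7.97-fold lower in pretreated livers than in saline (-3.00 ± 0.37, adjusted p = 4.89e-06). Pretreated and GalN/LPS livers overlapped (-0.64 ± 0.43, adjusted p = 0.219), although with library totals this difference passed (-1.13, adjusted p = 0.0396). All 3 dmPGE2 libraries were below all saline ones, at -0.77 ± 0.33 (adjusted p = 0.310).

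Ccne2, cyclin E2 (chromosome 4, 11191351 to 11204779, plus strand, 12 exons), was low throughout. Its levels were 1.88, 1.05 and 2.02 CPM in saline livers and 1.87, 2.55 and 1.39 CPM after dmPGE2 alone. After GalN/LPS they were 0.478, 0.567 and 0.819 CPM, and with pretreatment 0.476, 0.478, 0.584 and 0.423 CPM. Injured and uninjured libraries did not overlap, on 5 to 16 and 21 to 50 counts. Its change was -1.39 ± 0.38 after GalN/LPS (adjusted p = 0.00550) and -1.74 ± 0.37 in pretreated against saline livers (adjusted p = 7.48e-04). Ccne2 shares 5622 bases of its span with Ints8 on the opposite strand, which held 2097 counts over all libraries against 290 for Ccne2. Ints8 changed by -0.39 after GalN/LPS (adjusted p = 0.0893) and by -1.22 in pretreated against saline livers (adjusted p = 2.95e-05), so the Ccne2 values are uncertain.

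The balance of D to E cyclins separated injured from uninjured livers within each library. Summed D cyclin FPKM over summed E cyclin FPKM was 3.26 to 4.59 in saline and 2.76 to 5.47 in dmPGE2 livers, against 14.8 to 37.0 in GalN/LPS and 16.3 to 37.3 in pretreated livers. The injured groups overlapped each other. The summed E cyclin FPKM alone gave the same separation, at 1.96 to 2.08 in saline, 1.24 to 1.79 in dmPGE2, 0.307 to 0.631 in GalN/LPS and 0.178 to 0.457 in pretreated livers.

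Cdkn1b, which encodes the inhibitor p27 (chromosome 6, 134920401 to 134925513, plus strand, 2 exons), stepped down from saline to GalN/LPS and again to pretreated livers. Saline livers held 15.1, 20.0 and 16.0 CPM and dmPGE2 livers 16.3, 19.7 and 15.4 CPM. The GalN/LPS libraries read 11.3, 12.0 and 12.3 CPM and the pretreated libraries 6.43, 7.45, 8.09 and 7.02 CPM. The 3 groups saline, GalN/LPS and pretreated did not overlap, while saline and dmPGE2 covered nearly the same range. Cdkn1b was 1.44-fold lower after GalN/LPS (-0.53 ± 0.15, adjusted p = 0.00835), 1.63-fold lower again with pretreatment (-0.71 ± 0.15, adjusted p = 0.00116) and 2.35-fold lower in pretreated livers than in saline (-1.23 ± 0.15, adjusted p = 2.81e-06). These 3 calls passed with library totals too. The E cyclins fell further, and the ratio of Cdkn1b to summed E cyclin FPKM was higher in injured livers. It was 4.36 to 8.35 in GalN/LPS and 3.04 to 8.36 in pretreated against 1.63 to 2.16 in saline. The dmPGE2 livers, at 2.44 to 2.80, were also above saline, though below the injured livers.

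Whether dmPGE2 acted differently in injured and uninjured livers was tested as an interaction, the pretreated less GalN/LPS change minus the dmPGE2 less saline change. It passed for 5 of the 9 genes, all lower, beside 19.6% of all genes lower, 15.4% higher and 35.0% in either direction. Some cell type markers moved in the same test, lower for 7 of 8 of macrophages, 6 of 7 of endothelium and 4 of 7 of stellate cells and higher for 5 of 6 of hepatocytes. Those of B cells and cholangiocytes were lower in 2 of 5 each, and 1 of 4 erythroid markers was higher. With TMM 0 of 7 neutrophil, 0 of 4 monocyte and 0 of 6 T and NK cell markers passed, against 4, 0 and 2 lower with library totals. The part of these cell types in the interaction was not tested. The value was -2.70 ± 0.88 for Myc (adjusted p = 0.0270) and -2.15 ± 0.37 for Ccnd2 (adjusted p = 0.00117). Mxd1 stood at -1.69 ± 0.25 (adjusted p = 5.13e-04) and its partner Max at -0.86 ± 0.22 (adjusted p = 0.00801). Cdkn1b stood at -0.71 ± 0.21 (adjusted p = 0.0180). In each of these the lower level after pretreatment had no counterpart of that size in the uninjured livers. For Myc it was lost without GalN/LPS 3 (adjusted p = 0.0620), pretreated 4 (0.0504), dmPGE2 1 (0.0556) or dmPGE2 3 (0.0586), and for Cdkn1b without saline 1 (0.0530) or dmPGE2 2 (0.0554). For Ccnd1 it was 0.83 ± 0.45 (adjusted p = 0.158), and 1.48 without dmPGE2 1 (adjusted p = 0.00893). Ccnd3 stood at -0.31 ± 0.20 (adjusted p = 0.237 by edgeR), and at -0.90 with library totals (adjusted p = 0.0190).

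The wider MYC network, a list of 13 genes that includes Myc, Max and Mxd1, had 4 higher and 1 lower after GalN/LPS and 2 higher and 5 lower in pretreated against GalN/LPS livers. For these lists the shares over all genes are again 27.4% higher and 25.6% lower in the first comparison and 24.4% and 30.1% in the second, or 4.31% and 47.6% in the second with library totals, where the network had 0 higher and 9 lower. Beyond the members, Mlxip, a glucose-sensing partner of MLX, rose by 2.81 ± 0.27 on the log2 scale after GalN/LPS (adjusted p = 3.19e-07) and was lower with pretreatment (-1.42 ± 0.23, adjusted p = 1.89e-04). Mlxipl, its close relative that controls glycolytic and lipogenic genes in liver, rose by 0.71 ± 0.16 (adjusted p = 0.00134). Mycl, another MYC family gene, fell by 2.55 on the log2 scale (SE 0.28, adjusted p = 1.79e-06). Mnt, another MAX-binding repressor, was below its GalN/LPS level in the pretreated livers (-1.07 ± 0.25, adjusted p = 0.00225). Mlx and Mxi1 were higher there with TMM, at 0.51 and 0.50, and not with library totals (adjusted p = 0.987 and 1).

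Among 20 genes listed as MYC targets of growth and metabolism, 1 was higher and 6 were lower after GalN/LPS, and 4 were higher and 5 lower in pretreated against GalN/LPS livers. Their median changes were -0.15 and -0.11, beside 0.02 and -0.10 over all genes. With library totals 1 was higher and 10 were lower in the second comparison, with a median of -0.62 beside -0.61 over all genes. The polyamine enzyme Srm fell by 1.60 on the log2 scale (adjusted p = 1.23e-04) and the one-carbon enzyme Shmt1 fell by 1.51 (adjusted p = 1.25e-07) after GalN/LPS. The nucleolar genes Nolc1 (-1.89 ± 0.22, adjusted p = 1.55e-05) and Gnl3 (-1.56 ± 0.19, adjusted p = 2.17e-05) were lower with pretreatment than after GalN/LPS alone, as Myc was. The mitochondrial chaperone Hspd1 was higher there (0.82 ± 0.15, adjusted p = 4.47e-04).

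Among the G1 cyclins and their kinases (9 genes), 2 were higher and 4 lower after GalN/LPS, and only Ccnd2 passed, lower, in pretreated against GalN/LPS livers, where library totals gave 5 lower. Cdk6, a kinase partner of the D cyclins, fell by 1.17 on the log2 scale (adjusted p = 3.34e-05) and Cdk2, the partner of the E cyclins, by 0.55 (adjusted p = 0.0390). Of 7 inhibitor genes 5 were tested, with 2 higher and 2 lower after GalN/LPS. Cdkn1a, which encodes p21, rose from 0.940 to 38.6 mean CPM (log2 change 5.35 ± 0.34, adjusted p = 4.23e-09), opposite in direction to Cdkn1b, and was 0.87 lower on the log2 scale with pretreatment than without it (adjusted p = 0.00756). Cdkn2d rose from 4.10 to 11.6 mean CPM (adjusted p = 8.33e-06) and Cdkn2c fell by 1.37 (adjusted p = 4.94e-04).

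A list of ubiquitin ligase parts that act on MYC, cyclin E or p27, which also holds the deubiquitinase gene Usp28, came next. It had 1 higher and 5 lower of 10 tested after GalN/LPS. Usp28, which is no ligase part, was among the lower ones (-1.31 ± 0.32, adjusted p = 0.00276 by edgeR). Fbxw7, the F-box protein that marks MYC and cyclin E for destruction, fell by 1.47 on the log2 scale (adjusted p = 2.20e-05) and was lower again with pretreatment (-1.26 ± 0.23, adjusted p = 4.44e-04). Cks1b, a cofactor for p27 breakdown, fell by 1.72 (adjusted p = 2.32e-04). Of the retinoblastoma and E2F genes, 2 rose and 5 fell among 13 after GalN/LPS, with Rbl1 at 1.81 and E2f2 at 1.84 higher, and E2f3 at -1.24 and E2f8 at -2.19 lower.

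The last lists hold genes that act after the G1 members. Of 18 tested S phase genes 1 rose and 3 fell after GalN/LPS, and of 12 G2 and mitosis genes 2 rose and 0 fell. The S phase gene that rose was Ccna2, cyclin A2 (1.19 ± 0.48, adjusted p = 0.0456), a call lost with library totals (0.101). The 2 mitosis genes were Mki67 (1.85 ± 0.38, adjusted p = 6.90e-04) and Top2a (1.98 ± 0.44, adjusted p = 0.00138). In pretreated against GalN/LPS livers 0 of these 12 passed edgeR's test in either direction, with 1 at an unadjusted p under 0.05 and 0 called by DESeq2. With library totals, Mki67 (adjusted p = 0.0342) and Top2a (adjusted p = 0.0171) were lower there. Among the S phase genes 5 were higher and 2 lower in that comparison, against 0 and 6 with library totals, and Tyms, a thymidylate synthesis gene that was among the higher ones, did not pass with library totals (adjusted p = 0.146).

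**Figure D4:**
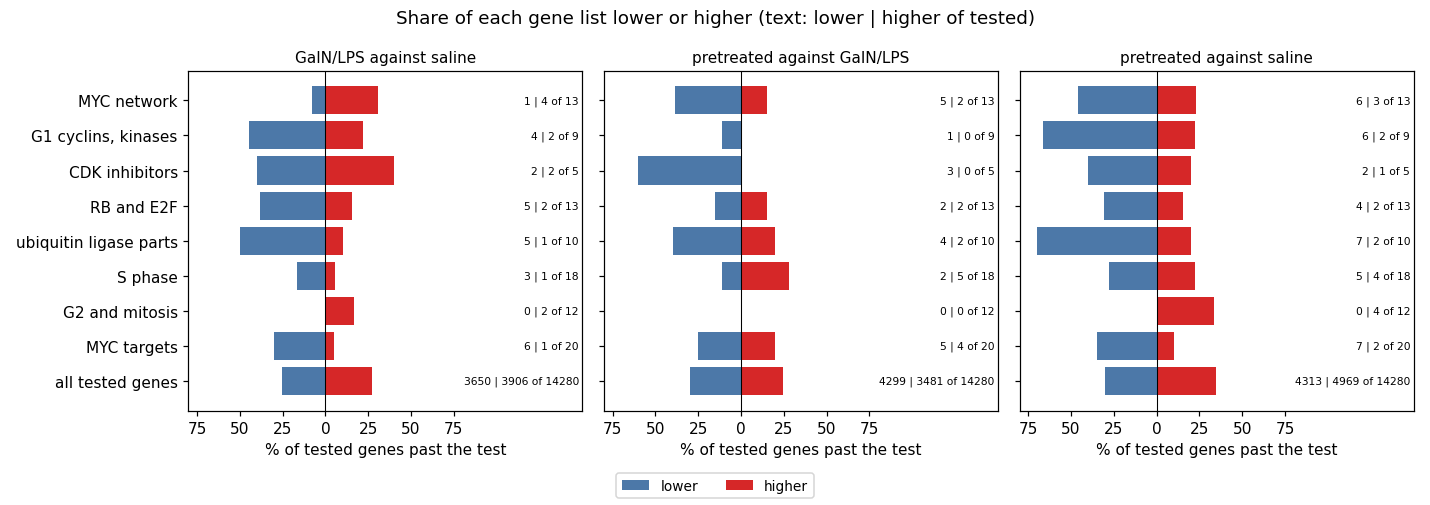
Bars give the share of each list's tested genes that were lower (left) or higher (right) by edgeR's quasi-likelihood test in 3 comparisons, with the counts printed as lower and higher of tested, beside all 14280 tested genes. The G2 and mitosis list has 2 higher and 0 lower of 12 after GalN/LPS and 0 of 12 called between pretreated and GalN/LPS livers.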

How the data were processed

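Per the labels' protocols, the library kit was NEBNext Ultra RNA, with 1 µg of total RNA from each liver sample. Per the submitters' processing notes, reads were aligned with HISAT2 to GRCm38 (mm10), with the HISAT2 version, the counter, its annotation and its strand setting not given in the sources used here. The authors deposited raw read counts per gene and FPKM values, which are the counts divided by gene length and by a per-library denominator that is not the library total. Coordinates are those of the deposited table on GRCm38, and for the 9 genes they match GENCODE M21, which gave the exons. Columns named for acute liver failure were taken as the GalN/LPS groups.

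From the counts, 13 libraries entered 1 edgeR 4.0.16 quasi-likelihood model (R 4.3.3) with group as its term, after filterByExpr left 14280 of 54532 genes, which held 99.9% of counts, and with TMM factors. Tests were two-sided, with Benjamini-Hochberg adjustment over all 14280 genes and calls at an adjusted p under 0.05. CPM values are TMM-scaled, and ± after a log2 change is its standard error. FPKM served for levels between genes and for ratios within a library. On simulated counts, this fit recovered 55% of 2-fold and 86% of 4-fold changes for GalN/LPS against saline, and 58% and 86% for pretreated against GalN/LPS. Arms of 3 or 4 libraries and low counts limit the precision. No pair of replicates was alike within sampling noise, with chi-square per degree of freedom of at least 19.5.

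The 9 genes, the 8 pathway lists and the 10 marker lists were chosen with earlier results of these data known. All 9 genes are named. From each pathway list the 2 other genes with the smallest adjusted p in each direction could be named in the 2 injury comparisons. Not every gene that this rule names is reported here. For each of the 9, the 3 genes named as most alike had the smallest root mean square difference in centred log2 CPM over the 13 libraries, among genes with a mean of at least 5 CPM in some group. Alternatives were other scalings, filters, tools and values (library totals, upper quartile, DESeq2 1.42.0, limma 3.58.1 on FPKM), a replicate block and leaving out each library.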

Additional observations from a re-analysis of the deposited data

Results flagged for a closer look

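Within the pretreated group, Myc in 1 of the 4 libraries (pretreated 1) stood at 14.3 CPM, while the others were between 2.17 and 3.62 CPM. Its gap to the nearest library was 0.880 of the group's range, above the critical value for a group of 4. Of 9 genes examined in that group this was the only gene that passed, and chance marks about 1 in 20 groups. In the same library Mxd1 (30.8 CPM), Ccnd1 (13.3 CPM) and Ccne1 (0.873 CPM) were the highest of the group. Ccnd2 (4.29 CPM), Max (9.76 CPM) and Cdkn1b (6.43 CPM) were the lowest there, while Ccnd3 and Ccne2 were at neither end. The decrease of Myc from GalN/LPS passed edgeR's test without each of the pretreated libraries.

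The change with dmPGE2 differed between injured and uninjured livers for 5 genes, by the interaction term of edgeR's quasi-likelihood test. It was -2.70 for Myc, -1.69 for Mxd1, -0.86 for Max, -2.15 for Ccnd2 and -0.71 for Cdkn1b on the log2 scale. For Max, Mxd1 and Ccnd2 the call held in every alternative run.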

How the results depend on the processing

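Of 26 calls on the 9 genes, 456 alternative values gave 422 with the same call, 33 that lost it and 1 that turned its direction. Of 19 results not called, 325 alternatives gave 300 unchanged, 12 now called and 13 turned, and the causes were not tested. With library totals, 2 of the 9 were higher after GalN/LPS. All genes called higher and lower were then 616 and 6804 for pretreated against GalN/LPS, 1683 and 6803 for pretreated against saline and 182 and 5209 for the interaction. Ccnd3 turned to -0.27 in pretreated against saline and Ccne1 to -0.43 in the interaction. For dmPGE2 against saline, Cdkn1b stood near 0, at -0.013 with upper quartile scaling, -0.0073 with DESeq2 and -0.020 with the compared groups alone. In that comparison DESeq2 called 137 genes higher and 140 lower, no filter on low counts 290 and 171 with 1 of the 9 lower (Ccnd1), limma on FPKM with a pseudocount of 1 called 12 and 4, and with 0.1 and no filter 6 and 2. With no filter 1 of the 9 was higher in the interaction (Ccnd1). A filter of 10 CPM in 3 libraries, which drops Ccne1 and Ccne2, left 1 of the 9 lower after GalN/LPS (all genes 2379 higher and 2396 lower), and 2061, 3155 and 1339 genes higher for pretreated against GalN/LPS, pretreated against saline and the interaction.

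Leaving out 1 library at a time, dmPGE2 against saline gave 0 to 1 gene higher and 0 to 3 lower, with Myc from -0.27 to 0.92, Ccne2 from -0.016 to 0.42 and Cdkn1b from -0.10 to 0.14. The interaction gave 1370 to 2705 genes higher, 0 to 1 of the 9 higher and Ccne1 from -0.26 to 0.39, and the lowest count came without GalN/LPS 3. Ccnd1 in pretreated against GalN/LPS ran from -0.31 to 0.090. Same-numbered libraries correlated between -0.31 and 0.087 in their deviations. Each dmPGE2 library correlated best with the saline library of its own number, at 0.087, 0.035 and 0.033. GalN/LPS 2 and 3 did so too, while GalN/LPS 1 and pretreated 1 to 3 did not. Values this weak, from groups of 3 or 4 libraries, cannot decide whether the numbers pair them. With the number as a replicate block, Ccnd1 passed in GalN/LPS against saline (-0.68, adjusted p = 0.0488 by edgeR) and Myc missed in pretreated against saline (-1.30, adjusted p = 0.0594). Counts of 2 to 20 for Ccne1 and 5 to 16 for Ccne2 limit those genes in injured livers.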

Other observations

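The genes whose levels ran most like each of the 9 over the 13 libraries were found by the root mean square difference in centred log2 CPM, where a smaller value is closer. It is a description over libraries that share their groups. Mxd1 was closest to Relb, a subunit of NF-kB (0.20, against 1.87 for Mxd1 around its own mean), whose group means were 27.2 CPM after GalN/LPS, 6.34 with pretreatment, 1.34 in saline and 1.16 in dmPGE2 livers. Next came Calhm6 (0.28) and Il2rg, the common gamma chain of cytokine receptors (0.31). Ccnd2 ran with Gimap6 (0.21), a GTPase gene of the immune-associated family, Pfkp (0.22), a phosphofructokinase, and Marcks (0.23), against 1.39 around its own mean. Gimap6 means were 49.8, 14.1, 4.04 and 4.21 CPM in the same order of groups.

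Myc had no close match. Its nearest genes were Slc41a1 (0.75), Trib1 (0.77) and Id2 (0.82), against 1.45 for Myc around its own mean, and Ccnd1 was likewise poorly matched, with Nup93 at 0.38, the replication gene Mcm2 at 0.39 and Ckb at 0.40 against 0.55. Max ran with the Hippo kinase gene Lats2 (0.15), Arl4a (0.16) and the histone demethylase gene Kdm3a (0.16), against 0.43. Ccnd3 ran with Tns1 (0.13), Flii (0.14) and the chaperone gene Hspa8 (0.15), against 0.27.

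Among the genes that fell with injury, Ccne1 was closest to Pxdc1 (0.29, against 1.26 around its own mean), then to Ciart (0.38), a circadian repressor gene, and Saysd1 (0.39). Ccne2 ran with Zfp790 (0.25), Pou2f1 (0.26) and Amer1 (0.26), against 0.82. Cdkn1b ran with Chd8 (0.12), a chromatin remodeller gene, Smim15 (0.14) and Kctd6 (0.15), against 0.54. Chd8 means were 17.5 CPM in saline and 17.0 in dmPGE2 livers, against 13.2 after GalN/LPS and 7.05 with pretreatment.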
